A study of Mus musculus with 16 samples.

Results

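Oc90 encodes otoconin-90, the main matrix protein of the otoconia, the calcium carbonate crystals of the balance organs. It was examined with 7 other genes of the developing inner ear, Fbxo2, Lmx1a, Pax2, Pax8, Gata3, Hmx2 and Hmx3, across 4 genotypes of mouse embryos. The 8 genes were found by symbol and are 8 of 26411 genes in the count files, and all 8 were among the 15679 genes with enough counts to be tested. Oc90 was selected on its counts in these embryos, because they were low in both Kat6a-/- genotypes, so its values are described here without a test. The other 7 genes were picked as known otic vesicle genes, and the question was whether they followed Oc90.

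RNA was sequenced from 16 whole embryos at E9.5, 4 of each genotype, each embryo being 1 replicate. Kat6a+/+Kat6b+/+ embryos were the wild type, Kat6a-/-Kat6b+/+ embryos were homozygous for a Kat6a null allele that lacks several internal exons, Kat6a+/+Tg(Kat6b) embryos carried a Kat6b transgene, and Kat6a-/-Tg(Kat6b) embryos carried both changes. The transgene is a bacterial artificial chromosome that holds the complete Kat6b gene, from 1 germline founder, so effects of its insertion site and of the raised Kat6b level cannot be told apart. All 4 genotypes shared a mixed genetic background of FVB and BALB/c. Kat6a and Kat6b encode related lysine acetyltransferases of histone H3.

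The inner ear arises from the otic placode, a thickening of the ectoderm beside the hindbrain that is induced by FGF and WNT signals from neighbouring tissue and folds in to form the otic vesicle. Pax2, Pax8 and Gata3 are among the first transcription factors of the placode, Lmx1a and the HMX factors act later in the dorsal and vestibular part of the vesicle, and Oc90 is secreted by the vesicle epithelium well before otoconia form. The vesicle is a very small share of an E9.5 embryo, and apart from Oc90 these genes are not confined to it: Pax2 and Pax8 mark the midbrain-hindbrain boundary and the nephric duct, Gata3 the nephric duct and Lmx1a the roof plate of the neural tube. In whole embryos, fewer otic cells and less RNA per otic cell cannot be told apart.

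The total count per embryo ranged from 14407277 to 45665680. Kat6b was at 42.6 to 51.0 CPM (the count of a gene scaled to library size, with TMM factors) in the 8 embryos without the transgene and at 155 to 227 CPM in the 8 embryos with it. Kat6a ranged from 138 to 218 CPM without separating the genotypes, and therefore did not check the Kat6a labels. Counts summed over the gene do not tell which exons were read, and the reason for the lack of separation was not tested. Litters 801 and 803 gave the 4 Kat6a-/-Kat6b+/+ embryos and 2 of the wild-type embryos. In litter 801 the wild-type embryo was male and both Kat6a-/-Kat6b+/+ embryos were female, so sex and genotype cannot be told apart there. The embryos of litter 803 were all male. Litters 2597 and 2598 held the other 2 wild-type embryos and the Kat6a+/+Tg(Kat6b) embryos. All 4 Kat6a-/-Tg(Kat6b) embryos came from litters 483 and 498, which held no other genotype, so that genotype and litter cannot be told apart in any comparison with them.

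The 8 genes lie on 6 chromosomes of GRCm39 in the GENCODE annotation. Oc90 is on chromosome 15 from 65747900 to 65784246, minus strand. Pax2 is on chromosome 19 from 44735057 to 44826703, Lmx1a on chromosome 1 from 167516677 to 167676310 and Fbxo2 on chromosome 4 from 148244593 to 148250881, each on the plus strand. Pax8, from 24309418 to 24365617, and Gata3, from 9861889 to 9894845, are both on the minus strand of chromosome 2. Hmx3, from 131144596 to 131146654, and Hmx2, from 131150502 to 131159744, are side by side on the plus strand of chromosome 7. The library kit does not mark the strand of a read, so reads from overlapping genes on opposite strands cannot be told apart. Such overlaps cover 37.9% of the exon bases of Fbxo2, 9.42% of Pax8 and 6.66% of Gata3, and a further 1.69% of Gata3 is shared with a gene on the same strand. The exons of Oc90, Lmx1a, Pax2, Hmx2 and Hmx3 overlap no other annotated gene.

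RefSeq promoter sequences of GRCm38.p6 were given for 7 of the 8 genes, in 10 windows of 250 bases before a start site. Oc90 had no entry. The 3 windows of Pax2, the tested gene that passed the threshold, are shown 5′ to 3′ with every CpG in capitals. They show how unlike the starts of 1 gene are, and counts per gene do not tell which start was used.
Pax2, start 1, chr19:44746351-44746600, + strand: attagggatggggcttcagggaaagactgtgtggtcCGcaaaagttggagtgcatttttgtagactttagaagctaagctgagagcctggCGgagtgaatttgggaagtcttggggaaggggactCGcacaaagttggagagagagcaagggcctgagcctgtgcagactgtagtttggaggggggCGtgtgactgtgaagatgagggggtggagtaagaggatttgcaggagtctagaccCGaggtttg
Pax2, start 2, chr19:44755502-44755751, + strand: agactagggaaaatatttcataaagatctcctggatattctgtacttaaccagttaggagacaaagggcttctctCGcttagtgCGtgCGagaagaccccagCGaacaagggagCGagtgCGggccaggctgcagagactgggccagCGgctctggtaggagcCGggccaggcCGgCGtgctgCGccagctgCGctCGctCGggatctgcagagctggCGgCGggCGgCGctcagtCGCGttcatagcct
Pax2, start 3, chr19:44756656-44756905, + strand: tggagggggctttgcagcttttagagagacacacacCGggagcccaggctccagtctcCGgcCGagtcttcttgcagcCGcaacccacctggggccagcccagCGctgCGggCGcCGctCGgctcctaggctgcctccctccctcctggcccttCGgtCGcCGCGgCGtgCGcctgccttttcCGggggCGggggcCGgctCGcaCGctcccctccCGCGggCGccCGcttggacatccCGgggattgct
These windows held 5, 20 and 25 CpG, against a median of 15 over 15357 windows of the tested genes (quartiles 7 and 22). The 10 windows ranged from 1 CpG at the first start of Hmx2 to 31 at the start of Hmx3, and 6 of them were above that median. A GGGCGG box, searched on both strands, was found in every window except the first of Pax2 and the first of Hmx2, and in 55.9% of all windows. TATAAA, also searched on both strands, was found only in the first window of Hmx2 among the 10, and in 6.82% of all windows. CACGTG, likewise searched, was in none of the 10 windows and in 7.92% of all windows. The sequence is that of the reference, not of the embryos' hybrid background.

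Oc90 was expressed at a low level and was lowest in the 2 genotypes that lack Kat6a. The 4 wild-type embryos, in replicate order, had 2.39, 1.49, 3.44 and 3.30 CPM, and the 4 Kat6a-/-Kat6b+/+ embryos had 0.83, 1.07, 1.00 and 0.79 CPM. Every Kat6a-/-Kat6b+/+ embryo was below every wild-type embryo. The Kat6a+/+Tg(Kat6b) embryos, at 1.61, 2.13, 3.55 and 1.79 CPM, spread over the wild-type range. The Kat6a-/-Tg(Kat6b) embryos, at 1.30, 0.49, 0.43 and 0.55 CPM, were also all below the wild type, and replicate 1 stood apart from the other 3. These levels rest on 7 to 86 counts per embryo, and the part of counting error in their spread was not tested.

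As a description, Oc90 was 0.376-fold of wild type without Kat6a, a log2 fold change of −1.41 (SE 0.26). With the transgene added it was 0.359-fold of wild type, a log2 fold change of −1.48 (SE 0.28). The difference between these 2 genotypes was −0.07, with a 95% interval from −0.68 to 0.54. With the transgene alone, the value vs. wild type was −0.31 (interval −0.79 to 0.17). Comparing the genotypes that both carry the transgene, loss of Kat6a went with a log2 fold change of −1.17 (SE 0.29). Without Kat6a-/-Tg(Kat6b) replicate 1 the 3 values that involve that genotype were −1.99 vs. wild type, −0.58 vs. Kat6a-/-Kat6b+/+ and −1.75 vs. Kat6a+/+Tg(Kat6b). Within litter 801, the Kat6a-/-Kat6b+/+ embryos had a mean of 0.949 CPM against 2.39 CPM in the wild-type embryo, a ratio of 0.396. In litter 803 the ratio was 0.601, against the lowest of the wild-type embryos.

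**Figure D1:**
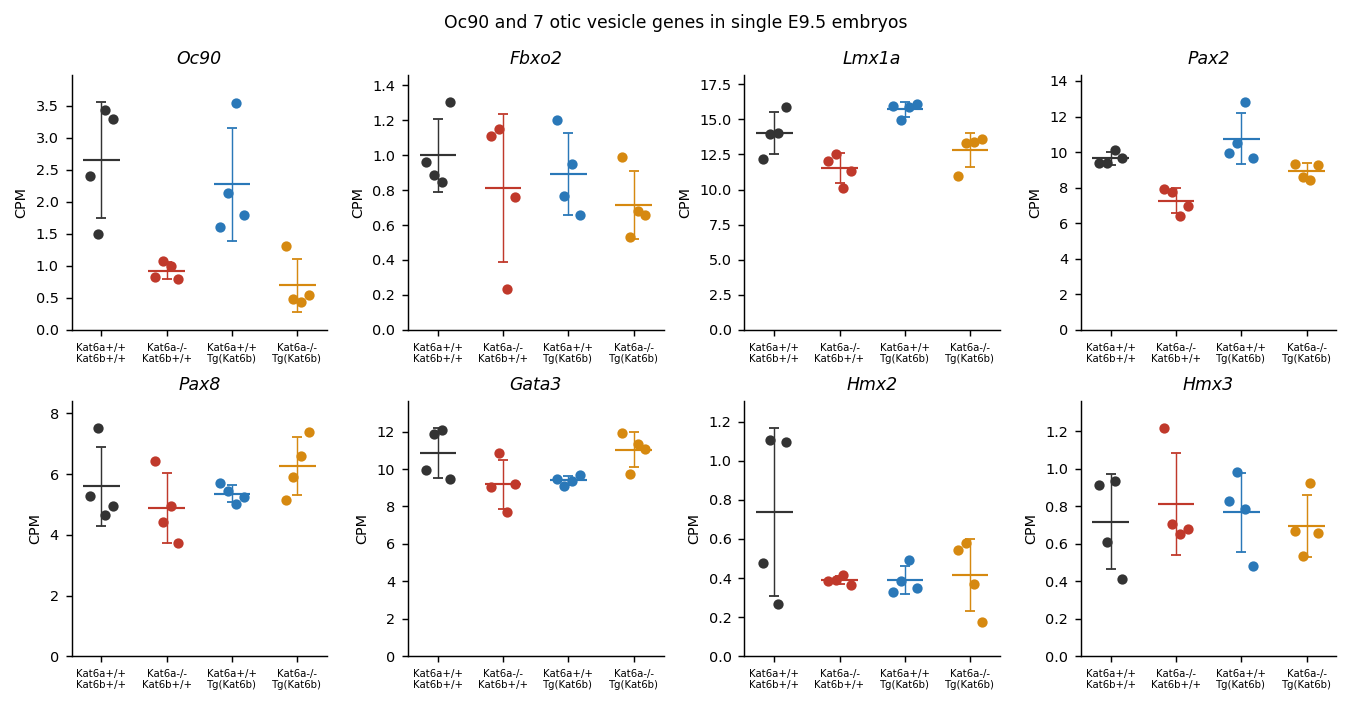
CPM of each of the 8 genes (vertical axis, from 0) in single embryos of the 4 genotypes (horizontal axis), with 1 point per embryo and the mean and SD of 4 embryos. Oc90 is low in both Kat6a-/- genotypes, Pax2 is lowest in Kat6a-/-Kat6b+/+ embryos at 6.38 to 7.91 CPM, and the other 6 genes overlap between every Kat6a-/- genotype and the wild type.

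Of the 7 tested genes, 1 fell in Kat6a-/-Kat6b+/+ vs. wild-type embryos and none rose. The threshold was an FDR of 0.05, the Benjamini-Hochberg adjusted p-value of edgeR's quasi-likelihood test over all 15679 genes, and 1.88% of those genes passed it in this comparison, 0.938% of them lower in Kat6a-/-Kat6b+/+ embryos. The log2 fold change was negative for 6 of the 7 genes, with a median of −0.23 against 0.00325 over all tested genes, and 3 of the 7 had an unadjusted p under 0.05, as did 15.2% of all genes.

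Pax2, the paired box factor of the early placode, was the gene that fell. Wild-type embryos had 9.36, 9.39, 10.1 and 9.68 CPM and Kat6a-/-Kat6b+/+ embryos 7.91, 7.74, 6.38 and 6.99 CPM. The groups did not overlap, as was the case for 7.97% of all tested genes. Pax2 fell by 0.40 on the log2 scale (SE 0.10, edgeR FDR = 0.044). All 4 Kat6a-/-Kat6b+/+ embryos were below the wild-type embryo of their own litter, with mean ratios of 0.836 in litter 801 and 0.712 in litter 803, but with litter as a block in the fit Pax2 did not pass (−0.37, edgeR FDR = 0.511). The call was close to the threshold: it was kept in 4 of 11 other settings of the test and in 3 of 16 fits that each left out 1 embryo, while the log2 fold change stayed between −0.44 and −0.35 in all 27.

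In Kat6a-/-Tg(Kat6b) embryos, where Oc90 was low, Pax2 was close to its wild-type level. These embryos had 9.32, 8.58, 8.45 and 9.29 CPM, all below the lowest wild-type embryo, at 9.36 CPM. The share of all genes without overlap was not counted for this comparison. The log2 fold change vs. wild type was −0.09 (interval −0.31 to 0.13, edgeR FDR = 0.78). Oc90 was at −1.48 in the same comparison, but its difference from Pax2 was not assessed since Oc90 was selected on these values. Against Kat6a-/-Kat6b+/+ embryos Pax2 was at 0.31 (interval 0.09 to 0.53, edgeR FDR = 0.072), which missed the threshold. Kat6a+/+Tg(Kat6b) embryos had 9.96, 10.5, 12.8 and 9.65 CPM, overlapping the wild type.

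**Figure D2:**
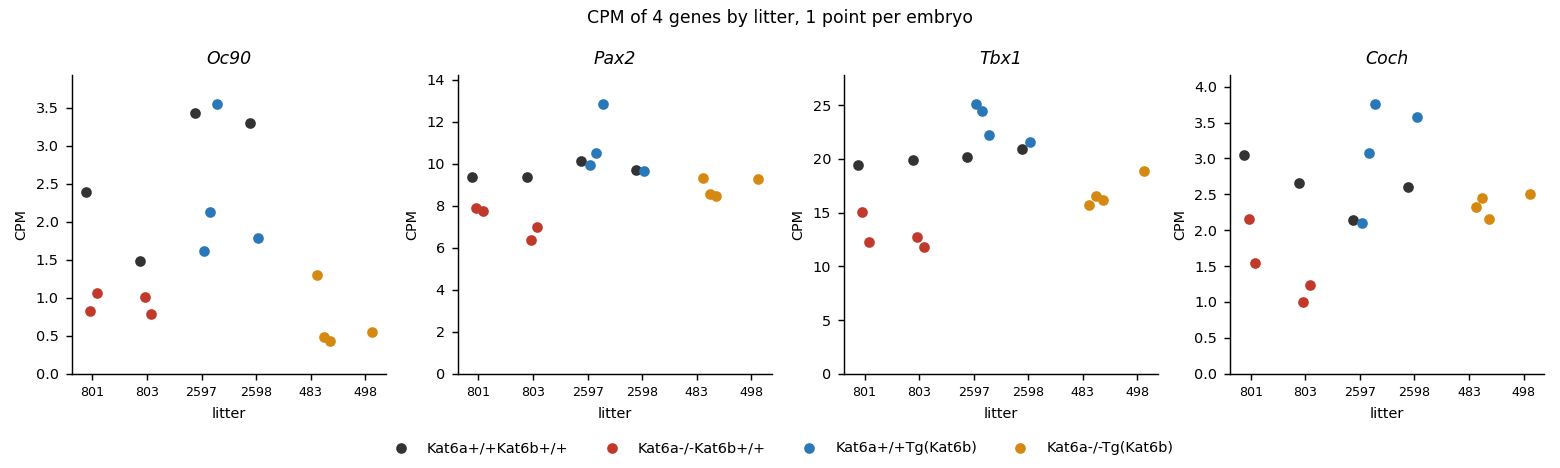
CPM (vertical axis, from 0) of Oc90, Pax2, Tbx1 and Coch in single embryos, arranged by litter (horizontal axis) and coloured by genotype. In litters 801 and 803 every Kat6a-/-Kat6b+/+ embryo is below the wild-type embryo of its litter for all 4 genes, and the Kat6a-/-Tg(Kat6b) embryos come from litters 483 and 498 alone.

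Lmx1a, a LIM homeodomain factor of the dorsal otic vesicle and the roof plate, came closest to the threshold among the other 6 genes. Its levels were 12.2, 14.0, 14.0 and 15.9 CPM in the wild type and 12.1, 12.6, 10.1 and 11.3 CPM in Kat6a-/-Kat6b+/+ embryos. The groups overlapped through the wild-type embryo of litter 801, where the ratio of Kat6a-/-Kat6b+/+ to wild type was 1.01, against 0.767 in litter 803. Its log2 fold change was −0.27 (interval −0.45 to −0.09, edgeR FDR = 0.111). Kat6a+/+Tg(Kat6b) embryos were at 14.9 to 16.1 CPM and Kat6a-/-Tg(Kat6b) embryos at 11.0 to 13.6 CPM, ranges that did not overlap, as was the case for 10.5% of all genes between these genotypes. The log2 fold change between these 2 genotypes was −0.32 (edgeR FDR = 0.0617), and 5 of 26 other settings put it past the threshold.

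Gata3, a zinc finger factor of the placode and later of the auditory neurons, was at 9.97, 11.9, 12.1 and 9.47 CPM in the wild type. Kat6a-/-Kat6b+/+ embryos had 9.02, 10.8, 7.68 and 9.19 CPM. With the transgene, the levels were 9.46, 9.08, 9.36 and 9.69 CPM in Kat6a+/+ and 11.9, 9.73, 11.3 and 11.1 CPM in Kat6a-/- embryos. The means were 10.9, 9.18, 9.40 and 11.0 CPM in that order of genotypes, and the 2 transgenic genotypes were again among those 10.5% of genes without overlap. Vs. wild type, the log2 fold changes were −0.23 (edgeR FDR = 0.317), −0.21 (edgeR FDR = 0.476) and 0.02 (edgeR FDR = 0.969). The interaction, which is the effect of Kat6a loss with the transgene minus that without it, was 0.46 (SE 0.16, edgeR FDR = 0.196), and 0 of the 7 genes passed for it, as did 0.153% of all genes.

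Pax8, the earliest of the PAX genes in the placode, varied widely within the wild type, at 5.27, 7.51, 4.64 and 4.94 CPM. Kat6a-/-Kat6b+/+ embryos had 6.42, 4.43, 4.96 and 3.72 CPM and overlapped the wild type. The log2 fold change was −0.23 (interval −0.53 to 0.06, edgeR FDR = 0.459). In litter 801 the mean of the Kat6a-/-Kat6b+/+ embryos was 1.03 times that of the wild-type embryo, and in litter 803 it was 0.578 times. Kat6a-/-Tg(Kat6b) embryos ranged from 5.15 to 7.40 CPM.

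Hmx2, Hmx3 and Fbxo2 were near the lower limit of detection, with 4 to 44 counts per embryo, and their intervals were wide. Hmx2, a homeobox gene of the vestibular part of the vesicle, was at 0.479, 1.105, 0.268 and 1.098 CPM in the wild type, from 6 to 20 counts. The Kat6a-/-Kat6b+/+ embryos were tightly grouped at 0.37 to 0.41 CPM, inside the wild-type range. Its log2 fold change was −0.82, with an interval from −1.72 to 0.07 (edgeR FDR = 0.379). Values of similar size were found in both other genotypes, −0.84 with both changes and −0.79 with the transgene alone, and all 3 comparisons share the same 4 wild-type embryos, of which replicates 2 and 4 were high. Without wild-type replicate 4 the value in Kat6a-/-Kat6b+/+ embryos was −0.34, without replicate 2 it was −0.45 and without replicate 3 it was −1.16, the ends of the range over 16 fits without 1 embryo being the first and the last of these.

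Hmx3, its neighbour and close relative, was at 0.41 to 0.94 CPM in the wild type and at 0.65 to 1.22 CPM in Kat6a-/-Kat6b+/+ embryos. On the log2 scale the difference was 0.08 (interval −0.60 to 0.75, edgeR FDR = 0.937), and this was the single positive value among the 7 genes. Fbxo2, a subunit of a ubiquitin ligase complex that marks the otic lineage, was at 0.85 to 1.30 CPM in the wild type. Kat6a-/-Kat6b+/+ embryos had 1.11, 1.15, 0.24 and 0.76 CPM, with replicate 3 at 4 counts. Fbxo2 was at a log2 fold change of −0.22 (interval −0.93 to 0.49, edgeR FDR = 0.812).

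When Kat6a-/-Tg(Kat6b) embryos were set against the wild type, none of the 7 genes passed, while 0.67% of all genes did. None had an unadjusted p under 0.05 there, against 12.7% of all genes, and the median log2 fold change was −0.14. With the transgene alone none passed against the wild type, where 0.14% of all genes did and again none had an unadjusted p under 0.05, against 11.5% of all genes. Between the 2 Kat6a-/- genotypes, none of the 7 passed although 7.14% of all genes did, and 2 had an unadjusted p under 0.05, as did 23.2% of all genes: Pax2, whose value is given above, and Gata3 at 0.25 (edgeR FDR = 0.176). Between the 2 transgenic genotypes, where 3.41% of all genes passed, none of the 7 did, and 2 had an unadjusted p under 0.05, as did 18.9% of all genes: Lmx1a, given above, and Pax2 at −0.24 (edgeR FDR = 0.229). With DESeq2 the counts of genes passing were 1 between Kat6a-/-Kat6b+/+ and wild type (Pax2), 1 between the transgenic genotypes (Lmx1a) and 0 in the other 3 comparisons. Several of these comparisons share embryos and are not independent of each other.

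**Figure D3:**
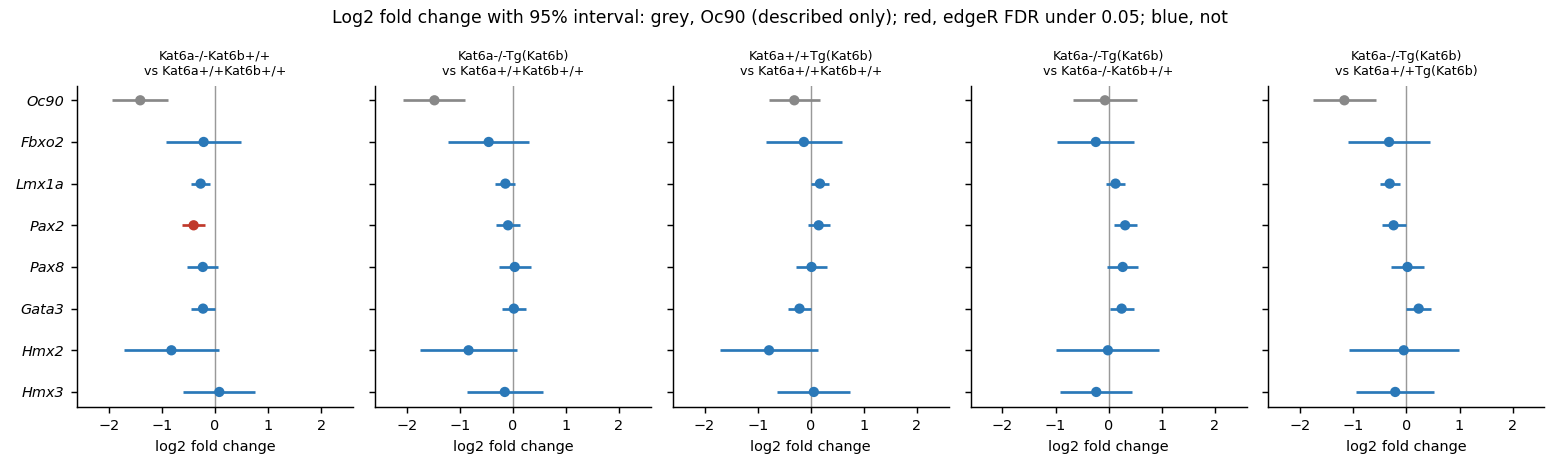
Log2 fold change (horizontal axis) of the 8 genes (vertical axis) in the 5 comparisons, with bars for the 95% interval of the edgeR fit. Oc90 (grey) is described without a test, Pax2 in Kat6a-/-Kat6b+/+ vs. wild-type embryos (red, −0.40) is the only tested value past an edgeR FDR of 0.05, and the bars of Hmx2, Hmx3 and Fbxo2 are the widest among the tested genes.

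Per length of transcript, the 8 genes were all weakly expressed. In wild-type embryos the mean levels in RPKM (CPM per kilobase of the deposited gene length) were 3.62 ± 0.387 for Lmx1a, 2.77 ± 0.339 for Gata3, 2.18 ± 0.508 for Pax8, 2.14 ± 0.0797 for Pax2, 1.47 ± 0.501 for Oc90, 0.700 ± 0.146 for Fbxo2, 0.523 ± 0.185 for Hmx3 and 0.246 ± 0.143 for Hmx2 (SD, n = 4). Neighbours in this order overlapped in range except at 2 steps, Lmx1a above Gata3 and Pax2 above Oc90. Oc90 was at 0.513 ± 0.0748 RPKM in Kat6a-/-Kat6b+/+ embryos, and at 0.385 ± 0.228 RPKM where the transgene was added.

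Across all 16 embryos, the level of Oc90 ran most closely with that of Pax2 among the 7 genes. Pearson's r of log2 CPM (prior count 2) was 0.637 for Pax2 and Spearman's rho 0.803, and 3.02% of the other 15678 tested genes had a higher r. It was 0.468 for Lmx1a, 0.408 for Fbxo2, 0.287 for Hmx2, −0.02 for Hmx3, −0.03 for Gata3 and −0.35 for Pax8. Without the 2 embryos farthest from the median of Oc90, which were Kat6a-/-Tg(Kat6b) replicates 2 and 3, r was 0.697 for Pax2 and 0.577 for Lmx1a. These are descriptions over embryos that share genotypes and litters, and no test was made.

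The 5 genes most like Oc90 over the 16 embryos were Maneal (r = 0.912), Tlcd3b (0.884), Neurog3 (0.883), Rnf122 (0.876) and Sox4 (0.874). Neurog3 encodes a bHLH factor of pancreatic endocrine progenitors and Sox4 a widely expressed SOXC factor, and none of the 5 belongs to the inner-ear lists used here. Maneal was at 8.47 ± 1.04 CPM in the wild type and 8.42 ± 0.501 CPM with the transgene alone, and without Kat6a at 7.02 ± 0.600 CPM, or 6.23 ± 0.814 CPM with the transgene (SD, n = 4). They were picked from 15678 genes for this likeness, so their genotype pattern is fixed by the choice and was not tested.

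Genes beside Oc90 were read from the annotation. Of 12 annotated genes whose start lies within 500 kb of that of Oc90, 4 are in the count files and 2 had enough counts to be tested. Efr3a, 125 kb away, was at 52.4 ± 2.12 CPM in wild-type and 50.1 ± 4.19 CPM in Kat6a-/-Kat6b+/+ embryos (log2 fold change −0.06, interval −0.17 to 0.05, edgeR FDR = 0.641). Kcnq3, a potassium channel gene 374 kb away, was at 3.30 to 3.83 CPM in the wild type, 2.50 to 3.10 CPM without Kat6a, 2.40 to 3.01 CPM with the transgene and 2.27 to 3.02 CPM with both changes. It did not pass in any comparison, and its log2 fold changes vs. wild type were −0.30, −0.38 and −0.41 in that order (edgeR FDR = 0.321, 0.302 and 0.244). Hhla1, 64.4 kb away, and the lncRNA Gm27242, 369 kb away, were at most at 0.123 CPM in any embryo.

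The wider set of inner-ear genes was read from 5 lists with 72 genes other than the 8, of which 62 could be tested. In Kat6a-/-Kat6b+/+ vs. wild-type embryos 4 of the 62 (6.45%) passed, against 1.88% of all genes, and all 4 were lower. The count was 1 with no or 1 surrogate variable or with sex as a covariate, 2 with limma-voom or litter as a block, and 6 with DESeq2. Without 1 embryo it was 2 to 7, at 2 without wild-type replicate 2 or 4, Kat6a-/-Kat6b+/+ replicate 3 or Kat6a-/-Tg(Kat6b) replicate 2, and at 7 without Kat6a+/+Tg(Kat6b) replicate 3. The log2 fold change was below 0 for 53 of the 62, with a median of −0.12. For Kat6a-/-Tg(Kat6b) embryos against wild type none of the 62 passed, 41 were below 0 and the median was −0.07. With the transgene alone none passed against the wild type, 17 were below 0 and the median was 0.08.

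Otoconia and endolymph genes are those nearest in function to Oc90, and most were barely detected: 9 of 19 could be tested. Otol1, which encodes the collagen-like otolin-1 of otoconia, had at most 1 count in any embryo, Otop1, a proton channel needed for otoconia, at most 7, Nox3, an oxidase needed for otoconia, at most 6, and Tectb none. Noxo1, the organizer of that oxidase, was detected in all embryos, at 2.89 ± 0.385 CPM in wild-type and 2.97 ± 0.520 CPM in Kat6a-/-Kat6b+/+ embryos (SD, n = 4), with a log2 fold change of 0.01 (edgeR FDR = 0.976). Oc90 was thus among the few genes of otoconia with enough counts to be compared.

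Coch, which encodes cochlin, a secreted protein of the inner ear, was the 1 otoconia and endolymph gene of the 9 that fell in Kat6a-/-Kat6b+/+ embryos. Wild-type embryos had 3.05, 2.65, 2.14 and 2.61 CPM and Kat6a-/-Kat6b+/+ embryos 2.16, 1.54, 1.00 and 1.24 CPM. The ranges met at 1 embryo of each group. Coch had a log2 fold change of −0.85 (SE 0.22, edgeR FDR = 0.0454), kept in 5 of 11 other settings and in 4 of 16 fits without 1 embryo. With litter as a block Coch did not pass (edgeR FDR = 0.268). Unlike Oc90, Coch was at 2.32, 2.44, 2.16 and 2.50 CPM in Kat6a-/-Tg(Kat6b) embryos, within the wild-type range, with a log2 fold change of −0.19 vs. wild type (edgeR FDR = 0.783). The list's median log2 fold change in Kat6a-/-Kat6b+/+ embryos was 0.01, and 4 of the 9 were below 0. Cyba went the other way and just missed the threshold (0.37, edgeR FDR = 0.0502). Its levels were 10.9 to 13.8 CPM in the wild type, 14.5 to 17.6 CPM in Kat6a-/-Kat6b+/+ and 11.3 to 14.1 CPM in Kat6a-/-Tg(Kat6b) embryos.

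Among otic patterning genes, 1 of 13 passed in Kat6a-/-Kat6b+/+ vs. wild-type embryos, and all 13 were below 0 with a median of −0.15. The summed level of the list was 642 to 656 CPM in Kat6a-/-Kat6b+/+ and 692 to 744 CPM in wild-type embryos. The largest parts of that sum were Nr2f1 and Sox2, with means of 207 and 168 CPM in the wild type. Their means in Kat6a-/-Kat6b+/+ embryos were 192 and 158 CPM. The otic patterning gene that passed was Tbx1, a T-box factor of the posterior otic vesicle and, in a larger domain, of the pharynx. Wild-type embryos had 19.4, 19.9, 20.1 and 20.9 CPM, and Kat6a-/-Kat6b+/+ embryos 15.05, 12.3, 12.8 and 11.8 CPM. These did not overlap, and the log2 fold change was −0.65 (SE 0.08, edgeR FDR = 4.29e-05), kept in all 27 other settings. Kat6a-/-Tg(Kat6b) embryos, at 15.7 to 18.9 CPM, lay between the 2 groups. Their log2 fold change was −0.29 vs. wild type (edgeR FDR = 0.094) and 0.36 vs. Kat6a-/-Kat6b+/+ embryos (edgeR FDR = 0.00938).

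Otic placode genes gave 1 of 13 that passed, and 12 were below 0 with a median of −0.13. Dlx3, a homeobox gene of the placode and other surface ectoderm, fell from 10.1, 12.2, 12.1 and 12.6 CPM in the wild type to 8.74, 10.0, 7.27 and 9.13 CPM in Kat6a-/-Kat6b+/+ embryos. The nearest embryos of the groups were at 10.1 and 10.0 CPM, and the log2 fold change was −0.40 (edgeR FDR = 0.0321), kept in 5 of 11 other settings and in 10 of 16 fits without 1 embryo. With litter as a block Dlx3 did not pass (edgeR FDR = 0.609). Eya1, a core gene of placode competence, was at −0.03 (edgeR FDR = 0.863). Of 11 otic neurogenesis genes none passed, with a median of −0.11.

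Of 16 otic induction genes, 1 passed and 14 were below 0, with a median of −0.12. Hoxb1, a hindbrain segment gene of the region where the placode is induced, and also expressed in posterior mesoderm, had 20.4, 25.1, 17.6 and 17.8 CPM in the wild type and 15.2, 13.8, 10.9 and 12.1 CPM in Kat6a-/-Kat6b+/+ embryos. Hoxb1 had a log2 fold change of −0.66 (SE 0.07, edgeR FDR = 1.79e-05), kept in 8 of 11 other settings and in all 16 fits without 1 embryo. In Kat6a-/-Tg(Kat6b) embryos it was at 14.5 to 24.5 CPM, overlapping the wild type.

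**Figure D4:**
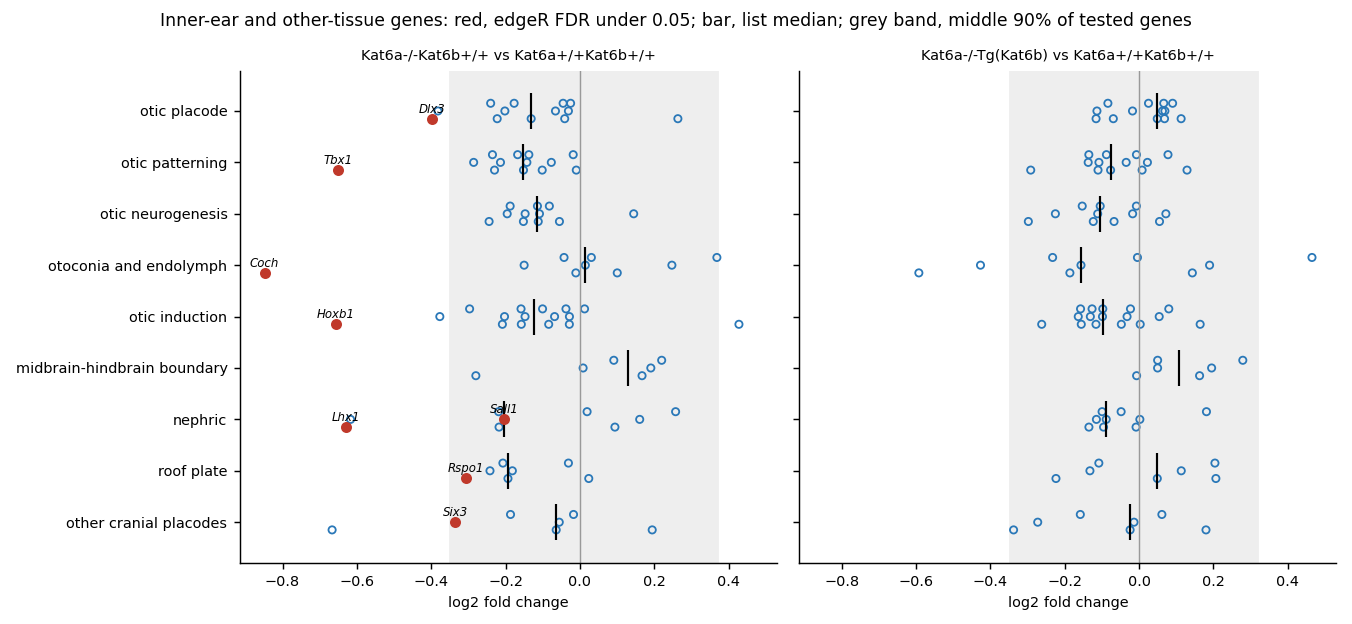
Log2 fold change (horizontal axis) of the tested genes of 5 inner-ear lists and 4 lists of other tissues (vertical axis) in Kat6a-/-Kat6b+/+ (left) and Kat6a-/-Tg(Kat6b) (right) vs. wild-type embryos, with 1 circle per gene, a bar at the median and a grey band for the middle 90% of all tested genes. Genes past an edgeR FDR of 0.05 are red and named, 8 on the left and none on the right.

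With the transgene in Kat6a-/- embryos, 6 of the 62 inner-ear genes (9.68%) differed from those without it, against 7.14% of all genes. Of these, 5 were higher, where 3.39% of all genes were, among them Hoxb1 (0.49, edgeR FDR = 0.000528), Dlx5 (0.43, edgeR FDR = 0.0212), Tbx1 and Sparc (0.20, edgeR FDR = 0.0131). Cyba, a subunit of the otoconial oxidase that is also abundant in phagocytes, was lower (−0.37, edgeR FDR = 0.025). Between the transgenic genotypes 7 of 62 (11.3%) passed, all lower in Kat6a-/-Tg(Kat6b) embryos, where 1.14% of all genes were. They were Tbx1 (−0.52, edgeR FDR = 0.00197), Hoxb1 (−0.46, edgeR FDR = 0.00306), Otx1 (−0.40, edgeR FDR = 0.0235), Lfng (−0.27, edgeR FDR = 0.0232), Spry2 (−0.23, edgeR FDR = 0.047), Dll1 (−0.21, edgeR FDR = 0.0468) and Sox2 (−0.21, edgeR FDR = 0.00744). Without 1 embryo these counts ranged from 3 (without Kat6a-/-Kat6b+/+ replicate 2) to 12 (without Kat6a+/+Tg(Kat6b) replicate 1) for the former comparison, and from 3 (without Kat6a-/-Tg(Kat6b) replicate 1) to 9 (without wild-type replicate 2) for the latter. Leaving out 1 embryo kept the call of Spry2 in 4 and that of Dll1 in 2 of 16 fits, and 10 other settings kept them in 3 and 2. Hoxb1 was kept in 7 of those 10, with a log2 fold change between −0.49 and −0.20 and an FDR of up to 0.534 over all 26. Its levels overlapped, at 14.5 to 24.5 CPM in Kat6a-/-Tg(Kat6b) and 21.0 to 26.4 CPM in Kat6a+/+Tg(Kat6b) embryos. Most of these genes are expressed well beyond the ear, Sox2 and Dll1 throughout the neural tube.

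The 7 genes have other sites of expression, and lists of these tissues were read beside them. None of 6 midbrain-hindbrain boundary genes passed in Kat6a-/-Kat6b+/+ vs. wild-type embryos, and 5 were above 0 with a median of 0.13. Their summed level was 75.4 to 99.4 CPM in the wild type and 84.9 to 97.9 CPM in Kat6a-/-Kat6b+/+ embryos. Of 10 nephric genes 9 were tested and 2 fell, Lhx1 (−0.63, edgeR FDR = 0.0121), a LIM factor of intermediate mesoderm and of neurons whose call was kept in 6 of 11 other settings and in 13 of 16 fits without 1 embryo, and Sall1 (−0.20, edgeR FDR = 0.0474), a zinc finger factor of kidney development whose call was kept in 3 of 11 other settings and in 2 of 16 such fits. The log2 fold change was below 0 for 5 of the 9 and above 0 for Gdnf (0.26), Wnt9b (0.16), Ret (0.09) and Osr1 (0.02), none of which passed. The summed level of the nephric list was 178 to 203 CPM in the wild type and 164 to 176 CPM in Kat6a-/-Kat6b+/+ embryos. Sall1 made up most of that sum, with a mean of 118 CPM in the wild type and 103 CPM in Kat6a-/-Kat6b+/+ embryos. No gene of the 10 was at 0 in all embryos of a genotype.

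The roof plate list, another site of Lmx1a, had a sum of 117 to 129 CPM in Kat6a-/-Kat6b+/+ against 134 to 148 CPM in wild-type embryos. Of its 7 genes 6 were below 0 and 1 passed, Rspo1 (−0.31, edgeR FDR = 0.0392), a WNT agonist whose call was kept in 4 of 11 other settings and in 7 of 16 fits without 1 embryo. Of 8 genes of other cranial placodes 7 were tested and 1 passed, Six3 (−0.34, edgeR FDR = 0.0269), an eye and forebrain factor whose call was kept in 9 of 11 other settings and in 9 of 16 such fits, and the sum was 129 to 143 CPM against 146 to 148 CPM. In all, 4 of 29 tested genes of the 4 lists (13.8%) fell and none rose, beside 6.45% of the inner-ear genes and 0.938% of all genes, and 18 of the 29 were below 0. With litter as a block none of the 4 passed, Lhx1 being at an edgeR FDR of 0.588, Six3 at 0.478, Rspo1 at 0.253 and Sall1 at 0.182. The sums in Kat6a-/-Tg(Kat6b) embryos overlapped the wild type for all 4 lists. The part of those tissues in the values of Pax2 and Lmx1a was not tested.

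**Figure D5:**
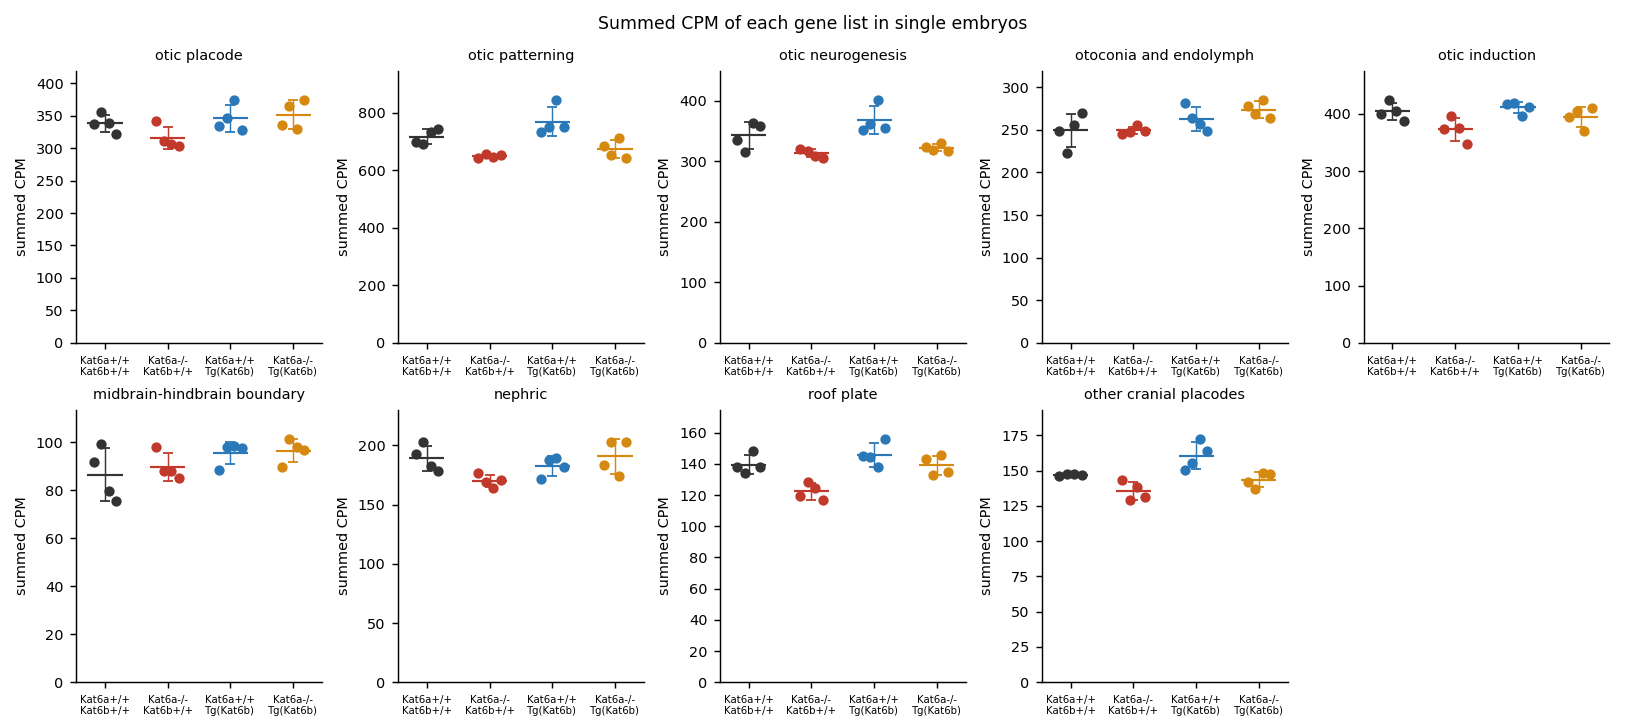
Summed CPM (vertical axis, from 0) of the genes of 5 inner-ear lists and 4 lists of other tissues in single embryos of the 4 genotypes (horizontal axis), with the mean and SD of 4 embryos. The nephric sums are 164 to 176 CPM in Kat6a-/-Kat6b+/+ embryos and 178 to 203 CPM in the wild type, while the sums of the midbrain-hindbrain boundary list overlap between these genotypes.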

How the data were processed

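The data are RNA-seq of 16 mouse embryos, each sequenced whole. The values deposited by the authors are raw read counts per gene, not normalized, 1 file per embryo. The submitters' processing notes name bcl2fastq, featureCounts and mm39, and the methods of the study name Rsubread. The annotation and the treatment of multi-mapping reads are not given in the sources used here.

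Genes were kept by filterByExpr in edgeR 4.0.16 (minimum count 10, minimum total 15). Counts were scaled by TMM, 2 surrogate variables (sva 3.50.0) were added to the genotypes, and the robust quasi-likelihood test was used with Benjamini-Hochberg adjustment over all tested genes and an FDR threshold of 0.05. limma 3.58.1, DESeq2 1.42.0 and R 4.3.3 were used for alternatives, and the test was tried on simulated data. Replicates were separate embryos, so p-values measure the spread between embryos that is left after the 2 surrogate variables. Littermates were treated as independent in the main fit. No pair of embryos of a genotype agreed within sampling noise (chi-square per degree of freedom 1.83 to 15.7). The genes and lists were chosen with earlier results of these data known. Named were the 8 genes, list genes past the threshold, the 5 genes most like Oc90 and its neighbours, and further genes of the otoconia list and Eya1 were named after their values were seen. Positions are from GENCODE, promoters from RefSeq. The result of 1 list gene past the threshold is not reported here.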

Additional observations from a re-analysis of the deposited data

Results flagged for a closer look

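In 4 of the 32 groups of 4 embryos checked over the 8 genes, 1 embryo stood apart from the other 3 (a gap of at least 0.865 of the range of the group). Oc90 in Kat6a-/-Tg(Kat6b) replicate 1 was at 1.30 CPM, and the next embryo at 0.549 CPM. Lmx1a was at 14.9 CPM in Kat6a+/+Tg(Kat6b) replicate 2, with the next at 15.9 CPM, and at 11.0 CPM in Kat6a-/-Tg(Kat6b) replicate 1, with the next at 13.3 CPM. Hmx3 in Kat6a-/-Kat6b+/+ replicate 1 was at 1.22 CPM, and the next embryo at 0.704 CPM. Chance alone marks about 5% of such groups.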

How the results depend on the processing

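Of 1230 values of the 8 genes under 11 alternatives and 16 fits without 1 embryo, 1135 were counted as the same. For the 7 tested genes this meant that direction and side of the threshold were kept. For Oc90 it meant only a shift below 0.498, its within-genotype SD of log2 CPM, whatever the sign or FDR. In Kat6a-/-Kat6b+/+ vs. wild-type embryos the 1 of the 7 genes that passed, Pax2, became 0 without surrogate variables, with 1 surrogate variable, with limma-voom, without a filter, with sex as a covariate, with the replicate block and with a litter block (0 to 1 without 1 embryo), and list genes fell from 4 to 1 with no or 1 surrogate variable or sex and to 2 with limma-voom or the litter block (2 to 7 without 1 embryo). Between the 2 Kat6a-/- genotypes 1 of the 7 passed with only these genotypes (0 to 1 without 1 embryo), and list genes went from 6 to 3 with no or 1 surrogate variable or sex, 10 with DESeq2 and 16 with only these genotypes (3 to 12). Between the 2 transgenic genotypes 1 of the 7 passed with DESeq2, limma-voom or only these genotypes (0 to 1), and list genes were 3 to 9 without 1 embryo. Against wild type, 1 list gene passed in Kat6a-/-Tg(Kat6b) embryos with DESeq2, with at least 10 counts in every embryo or with only these genotypes (0 to 1), and 2 in Kat6a+/+Tg(Kat6b) embryos with DESeq2 (0 to 1). The cause was not tested.

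Signs turned only for values that passed no test. For Pax8, Kat6a+/+Tg(Kat6b) vs. wild type was −0.058 without and −0.063 with 1 surrogate variable, −0.060 with sex and −0.024 with the replicate block (−0.085 to 0.10 without 1 embryo), Kat6a-/-Tg(Kat6b) vs. wild type −0.013 with at least 10 counts and −0.088 with the replicate block (−0.041 to 0.25), and vs. Kat6a+/+Tg(Kat6b) −0.020 and −0.064 (−0.089 to 0.15). For Hmx2, the difference between the Kat6a-/- genotypes was 0.031 without surrogate variables, with sex or with only these genotypes, 0.028 with 1 surrogate variable, 0.029 with DESeq2 and 0.37 with the replicate block (−0.26 to 0.30), and between the transgenic genotypes 0.019 without and 0.021 with 1 surrogate variable, 0.027 with sex and 0.33 with the replicate block (−0.31 to 0.24). Hmx3 in Kat6a+/+Tg(Kat6b) vs. wild type was −0.031 with the litter block (−0.12 to 0.28), and the Fbxo2 interaction 0.034 with the replicate block (−0.46 to 0.16). Without 1 embryo alone, the ranges were −0.047 to 0.10 for Gata3 and −0.36 to 0.0079 for Hmx3 in Kat6a-/-Tg(Kat6b) vs. wild type. In Kat6a-/-Kat6b+/+ vs. wild type they were −0.14 to 0.29 for Hmx3 and −0.47 to 0.068 for Fbxo2. Fbxo2 in Kat6a+/+Tg(Kat6b) vs. wild type was at −0.36 to 0.059. Between the Kat6a-/- genotypes the ranges were −0.40 to 0.060 for Hmx3, −0.58 to 0.023 for Fbxo2 and −0.58 to 0.14 for Oc90. In the interaction they were −0.56 to 0.020 for Hmx3 and −0.11 to 0.031 for Lmx1a. The Oc90 interaction, 0.24 in the main fit, fell as low as −0.14 under the alternatives (−0.33 to 0.52 without 1 embryo). Same-numbered embryos did not pair (10 of 24 correlations of their deviations over 0.1), so the replicate block has no basis in the design. Only 4 of the 8 genes had 10 counts in every embryo, and depth limits Oc90, Fbxo2, Hmx2 and Hmx3.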
